A study of Mus musculus with 10 samples.

Results

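The cadherins and mesenchymal transition genes examined here were 10 of the 29972 genes with values, compared in RNA-seq of mouse liver cells. They were the cadherin genes Cdh1 and Cdh2, the filament gene Vim, the transcription factor genes Zeb1, Zeb2, Snai1, Snai2 and Twist1, and the matrix genes Fn1 and Tnc. They were chosen by name as genes commonly read for a transition between epithelial and mesenchymal states. Each gene's level was the sum of TPM (an abundance per unit of transcript length, scaled to a fixed total in each library) over its Ensembl transcripts. Values of a group are given in the order of its library numbers.

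The 4 libraries of hepatocyte-derived peripheral cholangiocytes (HpC1 to HpC4) came from Alb-Cre+/-;Rbpjf/f;Hnf6f/f mice aged P124, P151, P144 and P139 in postnatal days. The 3 libraries of peripheral cholangiocytes (pC1 to pC3) came from Rbpjf/f;Hnf6f/f mice without Cre, aged P151, P119 and P142. The 3 libraries of hepatocytes (H1 to H3) came from Alb-Cre+/-;Rbpjf/f;Hnf6f/f mice aged P134, P139 and P139. All mice carried floxed Rbpj, the effector of Notch signalling, and floxed Hnf6, and were a mix of C57BL/6, FVB and CD1. The Cre was driven by the albumin promoter, so HpC and H shared the Cre and pC lacked it, and genotype and cell origin cannot be told apart between HpC and pC. All cells were sorted by flow cytometry: HpC and pC from a nonparenchymal fraction after enzyme digestion, H straight after liver perfusion. The labels do not say that H2 and H3 came from separate mice, nor whether HpC4, of the same genotype and age, shared a mouse with either, so libraries in comparisons with H may not all be independent. A kit for low RNA input was used, and reads were 50 bases long.

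Epithelial cells hold together through E-cadherin, the product of Cdh1, which is tied by catenins to the actin skeleton. In an epithelial-mesenchymal transition, repressors of the Snail, Zeb and Twist families lower Cdh1, while N-cadherin (Cdh2), vimentin and fibronectin increase, and the exchange of cadherins is called the cadherin switch. TGF-beta is a known inducer of this programme. In liver the reading is less simple, since hepatocytes carry both E- and N-cadherin and secrete plasma fibronectin.

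Libraries had 10232 (H2) to 14489 (pC3) genes at 1 TPM or more. Values were scaled between libraries by factors from 0.499 to 1.61, and sequencing depth is unknown. Sums of 6 hepatocyte markers, in scaled TPM, were 2838 to 5353 in HpC, 924 to 2479 in pC and 71269 to 82734 in H. Sums of 6 cholangiocyte markers were 1457 to 2416 in HpC, 4969 to 5224 in pC and 18.6 to 27.0 in H, so the markers followed the labels. The gap between HpC and pC came mostly from Spp1, which averaged 953 in HpC and 4223 in pC. Krt19 (673 and 456) and Krt7 (120 and 66.4) averaged higher in HpC. Sox9 (102 and 198) and Cftr (11.1 and 24.1) averaged lower, and Epcam was at 145 and 147. HpC1 held pancreatic acinar transcripts (194204 scaled TPM over 7 markers) and HpC2 squamous epithelial ones (38574 over 6). Acinar sums were also 851 in pC3 and 135 in HpC3, against 6.18 to 38.2 in the remaining libraries.

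Of the 10 genes, 7 reached at least 1 TPM in at least 3 libraries and were tested. Between HpC and pC, 3 of the 7 (Cdh2, Vim and Zeb2) were higher in HpC at a false discovery rate of 5% and none was lower, where 1.99% of the 14765 genes tested were higher and 4.54% passed in either direction. The median log2 difference of the 7 was 1.35, against -0.01 over all genes tested, and the ranges of 4 of the 7 did not overlap, against 16.5% of all genes tested. Between HpC and H, 3 of the 7 were higher (Cdh1, Vim and Zeb2) and 2 lower (Cdh2 and Fn1) in HpC. That background was 30.7% higher, 29.2% lower and 59.9% in either direction, and the ranges of 5 of the 7 did not overlap, against 60.5% of all genes, so these counts do not set the genes apart. Between pC and H, 2 were higher (Cdh1 and Vim) and 3 lower (Cdh2, Snai2 and Fn1) in pC, where 31.1% of all genes were higher, 28.6% lower and 59.6% either. Of the 3 lower, Snai2 was tested only because it was high in H. The ranges of 6 of the 7 did not overlap there, against 70.3% of all genes. Differences below are on the scale of log2(scaled TPM + 1), which understates changes of low genes, and adjusted p-values are from limma with Benjamini-Hochberg adjustment over all 14765 genes. Each pair of comparisons shares libraries.

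**Figure D1:**
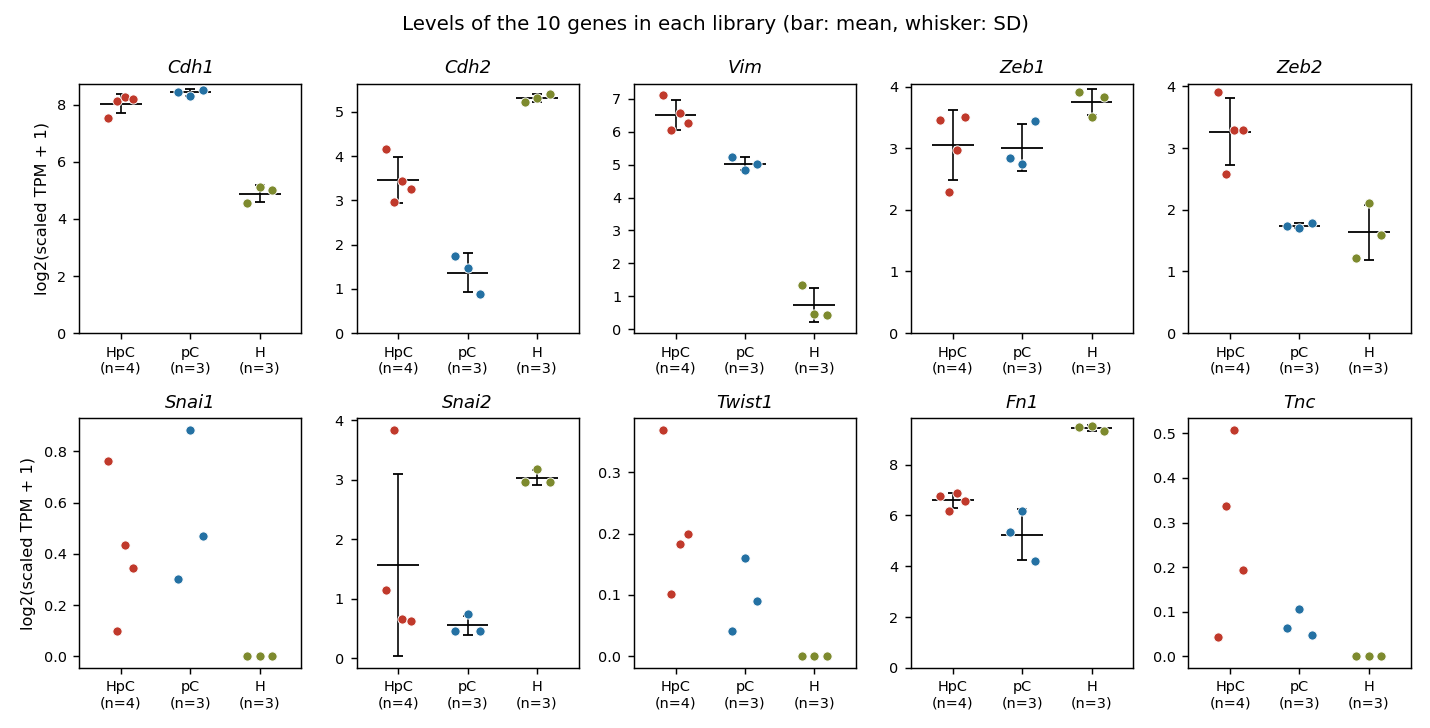
Level of each of the 10 genes on the log2(scaled TPM + 1) scale in HpC (red), pC (blue) and H (green), 1 point per library, with its own vertical axis per gene. Bars and whiskers are the mean and SD (n = 4, 3 and 3), left out for the 3 genes below the filter. Cdh2 separates the 3 groups with HpC between H and pC, and Vim separates them with HpC highest.

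**Figure D2:**
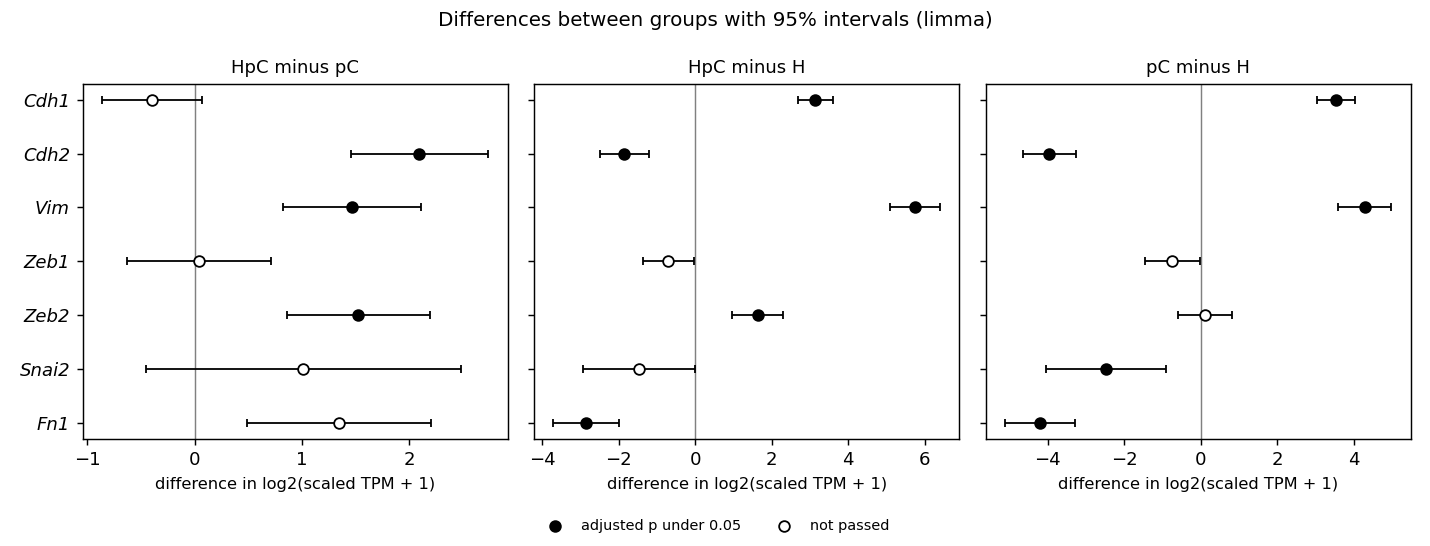
Differences between group means in log2(scaled TPM + 1) with 95% intervals from limma for the 7 genes tested, in panels for HpC minus pC, HpC minus H and pC minus H, each with its own horizontal axis. Filled points passed an adjusted p of 0.05: Cdh2, Vim and Zeb2 lie right of 0 in the first panel, and Cdh2 and Fn1 left of 0 in both panels against H.

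The E-cadherin gene Cdh1 was high in the hepatocyte-derived cells, and the N-cadherin gene Cdh2 lay between its levels in the other groups. Cdh1 (ENSMUSG00000000303, mm10 chromosome 8, 106603351 to 106670246, on the plus strand) was at 185, 279, 309 and 294 scaled TPM in the HpC libraries, 351, 318 and 370 in the pC libraries and 22.6, 33.4 and 31.3 in the H libraries. Every cholangiocyte library of either kind lay above every hepatocyte library, and HpC1 was the lowest of the HpC. Cdh1 was higher in HpC than in H by 3.15 ± 0.21 (SE; limma adjusted p = 7.73e-07) and higher in pC than in H by 3.54 ± 0.22 (adjusted p = 5.77e-07). All HpC libraries lay below all pC libraries, but the difference of -0.40 ± 0.21 (95% interval -0.86 to 0.07) did not pass (limma adjusted p = 0.363). Without HpC1 and HpC2 the difference was -0.16 (adjusted p = 0.749).

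Cdh2 (ENSMUSG00000024304), the cadherin of the mesenchymal side of the switch and also a cadherin of hepatocytes, was at 17.0, 6.85, 9.85 and 8.49 scaled TPM in the HpC libraries. The pC libraries held 2.33, 1.78 and 0.829, and the H libraries 36.4, 38.5 and 41.5. The ranges of the 3 groups did not overlap: H was highest, HpC intermediate and pC lowest, with HpC1 the highest of the HpC. The means were 10.5 ± 4.46 in HpC (SD, n = 4), 1.65 ± 0.759 in pC and 38.8 ± 2.58 in H (n = 3 each). Beyond the difference of 2.10 ± 0.29 between HpC and pC (limma adjusted p = 0.00335), Cdh2 was lower in HpC than in H by -1.86 ± 0.29 (adjusted p = 0.000284) and lower in pC than in H by -3.95 ± 0.31 (adjusted p = 2.22e-06). All 3 calls held in each of 23 alternative settings, the one between HpC and H most narrowly on TPM as deposited (adjusted p = 0.0446).

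Since hepatocytes hold the most Cdh2, its share of the hepatocyte level was set beside those of 6 hepatocyte markers. The HpC mean of Cdh2 was 27.2% of the H mean. The marker means, from the plasma proteins Alb, Ttr and Apoa1 to the enzymes Cps1, Cyp2e1 and Cyp3a11, were 1.40% to 6.60% of theirs. In pC, Cdh2 was at 4.24% of H, and the markers were at 0.438% to 3.69%. None of the 6 markers passed between HpC and pC, but their median log2 difference was 1.13, and all but Ttr averaged higher in HpC. Alb averaged 3607 ± 1159 scaled TPM in HpC (SD, n = 4) and 1534 ± 678 in pC (n = 3), and Ttr 248 and 255. Levels varied widely among HpC libraries, such as Cps1 from 0.585 to 37.3, and such a spread makes a call less likely. In bulk RNA of sorted cells, fewer cells of a type and less RNA per cell cannot be told apart.

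Cdh1 and Cdh2 were also compared within each library, where the scaling cancels. Cdh1 exceeded Cdh2 by 10.9-fold in HpC1 and by 31.4-fold to 40.8-fold in the other HpC libraries, against 150.6-fold to 446-fold in pC, while in H it was at 0.621 to 0.867 of Cdh2. The log2 ratio of Cdh2 over Cdh1 averaged -4.72 ± 0.86 in HpC (SD, n = 4), -7.84 ± 0.84 in pC and 0.43 ± 0.24 in H (n = 3 each). No group's ratios overlapped another's, and Cdh1 was the more abundant cadherin in every HpC and pC library. The ratio is given as a description, with no test.

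**Figure D3:**
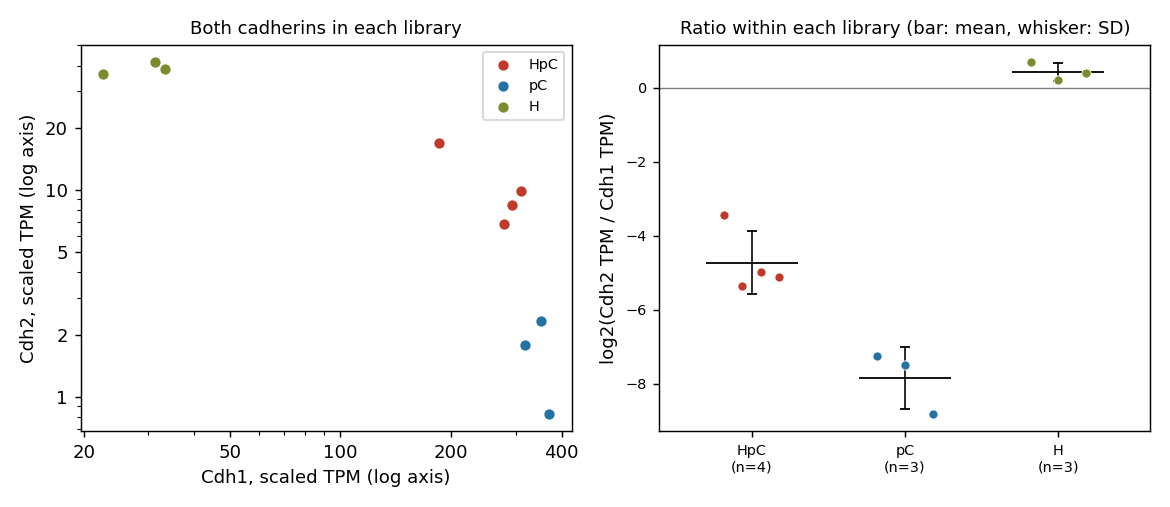
Left, scaled TPM of Cdh1 and Cdh2 in each library on log axes; right, log2 of the Cdh2 over Cdh1 TPM ratio per library with mean and SD (n = 4, 3 and 3), for HpC (red), pC (blue) and H (green). HpC lie near pC along the Cdh1 axis and between pC and H along the Cdh2 axis, and their ratios run from -5.35 to -3.45.

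Protein-coding transcripts held 94.9% to 99.3% of Cdh2 TPM in all libraries. The coding isoform Cdh2-202 held 14.7% of Cdh2 in HpC1, 32.5% in HpC2 and under 1% in HpC3 and HpC4, was under 1% in all pC, and held 8.54% to 35.8% in H. The isoform share thus varied as widely within HpC as within H. Gm15485, an antisense gene whose span overlaps that of Cdh2, was listed at 0 in all HpC and averaged 7.74 scaled TPM in H. Shared exon sequence was not checked and strand handling is unknown, so whether Cdh2 in H includes its reads is unknown.

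Vimentin, an intermediate filament protein of mesenchymal cells that some cholangiocytes also make, was highest in the hepatocyte-derived cells. Vim (ENSMUSG00000026728, chromosome 2, 13573927 to 13582826, on the plus strand) was at 137, 64.8, 93.0 and 76.5 scaled TPM in the HpC libraries. The pC libraries held 36.5, 27.8 and 31.2, and the H libraries 1.53, 0.375 and 0.355. The lowest HpC library lay above the highest pC library, and HpC1 was again the highest. Vim was higher in HpC than in pC by 1.47 ± 0.29 (SE; limma adjusted p = 0.0192), higher in HpC than in H by 5.75 ± 0.29 (adjusted p = 1.76e-07) and higher in pC than in H by 4.28 ± 0.31 (adjusted p = 1.40e-06). Thus Vim, unlike Cdh2, was near its lowest in hepatocytes. The call between HpC and pC ended on TPM as deposited (1.05, adjusted p = 0.0810) and on leaving out HpC3 or 1 pC library, whichever it was (adjusted p up to 0.0952). Without HpC1 and HpC2 it passed (adjusted p = 0.0357).

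Most Vim TPM was assigned to transcripts annotated as not coding for protein. The transcript Vim-203, annotated as a retained intron, held 62.2% to 65.5% of Vim in HpC and 58.1% to 67.1% in pC, and the coding transcripts held 16.5% to 18.3% in HpC and 13.3% to 18.3% in pC. Short single-end reads are shared between such overlapping transcripts by estimation. On coding transcripts alone Vim was at 22.7, 11.1, 16.5 and 14.0 scaled TPM in HpC and at 4.86, 5.09 and 5.43 in pC, again without overlap. With every gene summed over coding transcripts only, a choice made after these shares were seen, Vim differed by 1.43 between HpC and pC (limma adjusted p = 0.00322).

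Among the transcription factors, Zeb2 was the one that differed between HpC and pC. Zeb2 (ENSMUSG00000026872, chromosome 2, 44983632 to 45117395, minus strand), a zinc finger repressor of Cdh1, was at 14.0, 4.99, 8.80 and 8.76 scaled TPM in the HpC libraries. The pC libraries held 2.33, 2.27 and 2.46, and the H libraries 1.33, 3.30 and 2.00. All HpC libraries lay above all others, and the pC values lay within the range of H. Zeb2 was higher in HpC than in pC by 1.52 ± 0.30 (SE; limma adjusted p = 0.0184) and higher in HpC than in H by 1.63 ± 0.30 (adjusted p = 0.000876); pC and H differed by 0.11 ± 0.32 (95% interval -0.60 to 0.82; adjusted p = 0.786), which passed on TPM as deposited (1.14, adjusted p = 0.00874). The call against pC likewise ended on leaving out HpC3 or 1 pC library (adjusted p up to 0.0838), and it passed without HpC1 and HpC2 (adjusted p = 0.0143).

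The Zeb2 transcripts of H were of another class than those of HpC. The retained-intron transcript Zeb2-209 held 78.0% to 92.5% of Zeb2 in H, against 4.91% to 11.5% in HpC and 12.1% to 31.2% in pC. Coding transcripts of Zeb2 gave 11.3, 2.41, 5.67 and 6.21 scaled TPM in the HpC libraries, 0.99, 1.40 and 0.95 in the pC libraries and at most 0.09 in H. On coding transcripts alone the groups were ordered HpC, pC and H without overlap, and pC also passed above H, by 0.98 (limma adjusted p = 0.0374). The antisense transcript gene Zeb2os was at most 0.24 scaled TPM in any library.

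Zeb1 (ENSMUSG00000024238), the other Zeb family repressor of Cdh1, did not pass in any comparison of the main fit of all 10 libraries. Its levels were 9.93, 3.88, 6.79 and 10.4 scaled TPM in the HpC libraries, 6.15, 5.71 and 9.90 in the pC libraries and 14.1, 10.4 and 13.2 in the H libraries. HpC and pC overlapped throughout and differed by 0.04 ± 0.30 (95% interval -0.63 to 0.72; limma adjusted p = 0.958). HpC minus H was -0.70 ± 0.30 (adjusted p = 0.0693) and pC minus H was -0.74 ± 0.32 (adjusted p = 0.0714), and both turned positive on TPM as deposited. Without HpC1 and HpC2, pC minus H passed (-0.66, adjusted p = 0.0386), and HpC minus H was -0.40 (adjusted p = 0.224). Coding transcripts held only 10.4% to 54.5% of Zeb1 in HpC, so its coding level is uncertain. The spans of 2 genes on the opposite strand overlap that of Zeb1. Gm10125 was at mean levels of 4.92 to 5.31 and Gm16147 at 2.11 to 4.30 scaled TPM in the 3 groups. Shared exon sequence was not checked, so their part in the Zeb1 level is unknown.

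**Figure D4:**
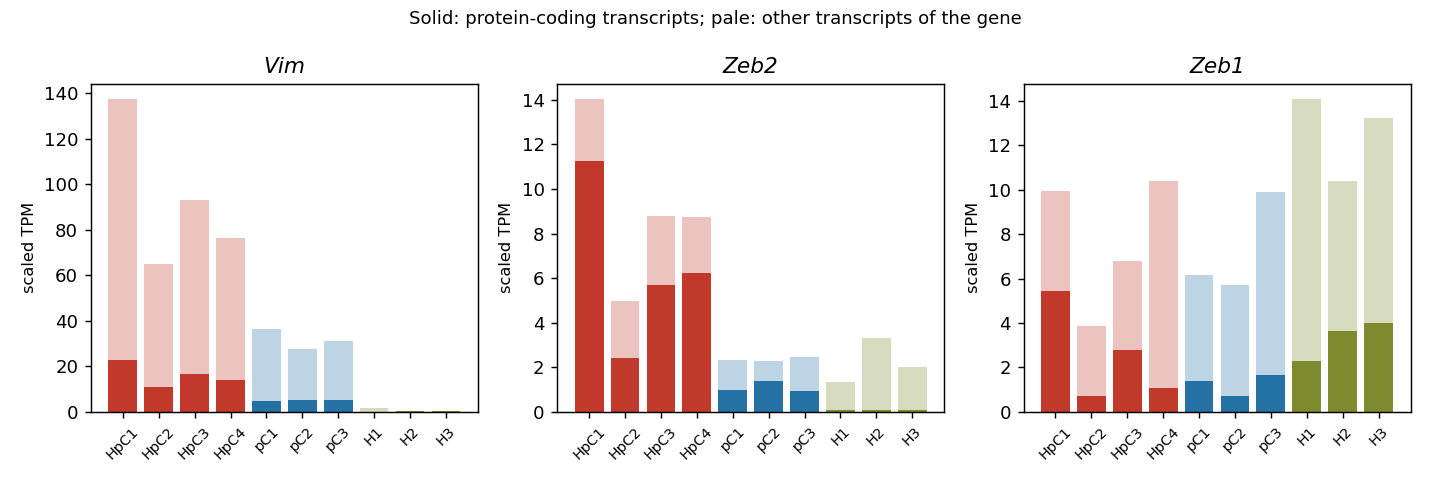
Scaled TPM of Vim, Zeb2 and Zeb1 in each library (HpC red, pC blue, H green), split into protein-coding transcripts (solid) and all other transcripts of the gene (pale), each panel with its own axis from 0. Non-coding classes make up most of Vim in HpC and pC and nearly all of Zeb2 in H, while coding Zeb2 is tallest in HpC.

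Snai2 (ENSMUSG00000022676, chromosome 16, 14705852 to 14709385, on the plus strand), which encodes the repressor Slug, was at 1.22, 13.3, 0.576 and 0.542 scaled TPM in the HpC libraries. The pC libraries held 0.374, 0.674 and 0.379, and the H libraries 6.78, 8.04 and 6.83. HpC2 lay above every hepatocyte library, while the other HpC libraries lay below all of them. HpC2 was also the library with squamous epithelial transcripts, whose marker sum was at most 12.6 scaled TPM in any other library; their part in the Snai2 level was not tested. HpC minus H was -1.47 ± 0.66 with all libraries (limma adjusted p = 0.0787) and -2.13 without HpC2, where it passed (adjusted p = 1.30e-05). Snai2 was lower in pC than in H by -2.48 ± 0.70 (limma adjusted p = 0.0117), a call that ended on TPM as deposited (-1.47, adjusted p = 0.0586). Outside H only HpC2 and pC2 reached 1 TPM, so Snai2 was tested only because it was high in H. HpC minus pC was 1.01 ± 0.66 (95% interval -0.46 to 2.48, limma adjusted p = 0.471), or 0.27 without HpC2.

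Snai1 and Twist1, which encode repressors of Cdh1 that act in the embryonic mesoderm, were low everywhere and did not reach the filter. Snai1 (ENSMUSG00000042821, chromosome 2, 167538195 to 167542814, on the plus strand) was at 0.697, 0.072, 0.350 and 0.269 scaled TPM in the HpC libraries, against 0.233, 0.846 and 0.386 in the pC libraries. It was listed at 0 in all 3 H libraries, and HpC and pC overlapped. Twist1 (ENSMUSG00000035799, chromosome 12, 33957671 to 33959829, on the plus strand) was at 0.291, 0.072, 0.135 and 0.148 in the HpC libraries, against 0.029, 0.117 and 0.065 in the pC libraries. It too was listed at 0 in all H libraries, and HpC2 lay within the pC range. With no filter neither passed between HpC and pC (limma adjusted p = 0.746 for Snai1 and 0.465 for Twist1). Against H, Twist1 passed in HpC (adjusted p = 0.0193) and Snai1 in pC (adjusted p = 0.0401), with H listed at 0.

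Fibronectin, a matrix glycoprotein that hepatocytes also secrete into plasma, was far lower in both cholangiocyte groups than in hepatocytes. Fn1 (ENSMUSG00000026193, chromosome 1, 71585520 to 71653200, minus strand) was at 107, 71.7, 116 and 93.5 scaled TPM in the HpC libraries and at 40, 71.9 and 17.3 in the pC libraries. The H libraries held 724, 733 and 637. No cholangiocyte library came near a hepatocyte library, while pC2 reached the lowest HpC value. Fn1 was lower in HpC than in H by -2.85 ± 0.38 (SE; limma adjusted p = 0.000106) and lower in pC than in H by -4.20 ± 0.41 (adjusted p = 1.12e-05). The HpC mean was 13.9% of the H mean and the pC mean 6.17%. HpC minus pC was 1.35 ± 0.38 (95% interval 0.49 to 2.20) and did not pass (adjusted p = 0.0865), but it did without pC2, the highest of the pC libraries (1.81, adjusted p = 0.0268). Without pC3, the lowest of them, it was 0.82 (adjusted p = 0.169). The gene Apol7d overlaps Fn1 on the other strand, with means of 6.66 in HpC, 1.67 in pC and 27.3 in H.

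Tnc (ENSMUSG00000028364, chromosome 4, 63959785 to 64047015, minus strand), which encodes the injury-related matrix protein tenascin C, was at 0.030, 0.264, 0.422 and 0.143 scaled TPM in the HpC libraries, against 0.046, 0.076 and 0.033 in the pC libraries. It was listed at 0 in all H libraries. HpC1 was below every pC library and the other HpC libraries were above them, at levels under the filter throughout. With no filter its HpC minus pC difference did not pass (limma adjusted p = 0.408), while HpC minus H did (adjusted p = 0.0472).

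The genes around these 10 were read from lists by role. Of 27 mesenchymal effector and matrix genes, 22 were tested, 9 were higher in HpC than in pC, none was lower and 13 did not pass, with a median of 1.23 (higher over all genes tested: 1.99%). Loxl2, a collagen cross-linking enzyme, averaged 6.60 ± 1.02 scaled TPM in HpC (SD, n = 4) and 0.604 ± 0.104 in pC (n = 3), a difference of 2.24 ± 0.16 (limma adjusted p = 0.000104). It reached 1 TPM in all 4 HpC libraries and in 1 pC library, so it was tested only because it was high in HpC. S100a6, a calcium-binding protein gene, averaged 82.3 ± 34.2 in HpC and 14.6 ± 4.12 in pC (2.34 ± 0.34, adjusted p = 0.00413). Axl, a receptor kinase gene, averaged 22.0 ± 6.56 in HpC and 4.79 ± 2.14 in pC (adjusted p = 0.00616, or 0.0670 on TPM as deposited). Tpm1, Cald1, Col3a1, Tgfbi and Cd44 were also among the 9. The count was 8 without HpC1 and HpC2, but 4 on TPM as deposited and 4 without HpC3, pC1 or pC2, so it rests in part on single libraries. The 8 were not all from the 9. Without HpC1 and HpC2, Tgfbi (limma adjusted p = 0.154) and Cd44 (adjusted p = 0.0777) lost their calls. Thbs1, which had not passed with all libraries (adjusted p = 0.0595), passed there (adjusted p = 0.00682).

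Other transition factors and epithelial genes did not follow that list. Of 16 other transition transcription factors, 9 were tested, none was higher, 2 were lower and 7 did not pass (median -0.47; lower over all genes tested: 2.55%). Foxc1, a forkhead factor, averaged 0.374 ± 0.128 scaled TPM in HpC and 5.73 ± 2.10 in pC (-2.24 ± 0.23, limma adjusted p = 0.000824), and it passed the filter through the pC libraries alone, so that it was not tested when one of them was left out. Id1, an inhibitor of basic helix-loop-helix factors, averaged 12.2 ± 3.25 in HpC and 49.0 ± 23.0 in pC (-1.83 ± 0.33, adjusted p = 0.0125), a call that ended without pC1 or pC2 (highest adjusted p = 0.0699). Without HpC1 and HpC2, 1 factor passed as higher, the AP-1 gene Fosl1 (1.88, adjusted p = 0.0296, against 0.101 with all libraries). None of 14 tested regulators of the epithelial state passed (median -0.08), but 1, the repressor gene Ovol2, was lower without HpC1 and HpC2 (-0.88, adjusted p = 0.0475). Among them, the splicing regulator Esrp2 averaged 57.7 ± 24.4 in HpC and 60.0 ± 12.8 in pC, and the epithelial factor Ehf 130 ± 43.3 in HpC and 222 ± 34.0 in pC. Some varied widely among HpC libraries, such as Rab25 at 46.9 ± 66.7 (9.24 to 147) and Klf5 at 132 ± 110 (39.3 to 291). Such a spread makes a call less likely, and the part of squamous transcripts in it was not tested. None of 14 tested cadherins, catenins and partners passed either (median 0.03), with beta-catenin (Ctnnb1) at 360 ± 47.9 in HpC and 497 ± 15.8 in pC and the junction adaptor Afdn at 332 ± 85.9 in HpC and 253 ± 44.4 in pC.

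Of 10 tested genes from a list of other intermediate filaments and a filament linker, 2 were higher in HpC than in pC. None was lower and 8 did not pass (median 0.47, higher over all genes tested 1.99%). Both reached 1 TPM in all 4 HpC libraries and in 1 pC library, so they too were tested only because they were high in HpC. Nes, encoding nestin, averaged 4.45 ± 1.98 scaled TPM in HpC and 0.535 ± 0.264 in pC (1.77 ± 0.29, limma adjusted p = 0.00763), and Synm, encoding synemin, 1.91 ± 0.653 in HpC and 0.485 ± 0.249 in pC (adjusted p = 0.0335), a call that ended without HpC1 and HpC2 (adjusted p = 0.0992) and in 8 of 10 fits that left out 1 library (adjusted p up to 0.163). Without HpC1 and HpC2 the count was 3, with Nes and the duct keratin genes Krt19 and Krt7. None of 12 tested receptors and relatives of fibronectin and tenascin passed (median 0.01), including the integrin chain Itgb1 at 130 ± 12.4 in HpC and 121 ± 11.5 in pC and the syndecan Sdc4 at 314 ± 64.1 in HpC and 331 ± 81.2 in pC. None of 10 regulators of fibronectin exon splicing passed (median -0.05), with Srsf5 at 175 ± 27.3 in HpC and 208 ± 78.6 in pC and Ptbp1 at 197 ± 29.5 in HpC and 188 ± 18.7 in pC. A p that misses the threshold does not show that levels were equal.

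Against hepatocytes the share of called genes differed between the lists. Of the 14 epithelial regulators tested, 12 were higher and 2 lower in HpC than in H (median 4.02, background higher 30.7%), and 11 were higher and 1 lower in pC than in H (median 4.03, background higher 31.1%). Of the 22 mesenchymal genes, 20 were higher and 1 lower in HpC than in H (median 2.35), and 14 were higher and 1 lower in pC than in H (median 1.06). Of the 14 cadherins and catenins, 13 were higher in HpC than in H and 10 in pC than in H, and none was lower in either. Of the 9 other transition factors, 5 were higher in HpC than in H and 4 did not pass, a share near the background, while all 9 were higher in pC than in H. Foxc1, among these 9, passed the filter through the pC libraries alone. Of the 12 receptors and relatives, 10 were higher in HpC than in H and 10 in pC than in H. Of the 10 filament genes, all were higher in HpC than in H and 7 in pC than in H. Of the 10 splicing regulators, 5 were higher and 2 lower in each of the comparisons. All genes tested had a median of 0.08 between HpC and H and 0.11 between pC and H. Genes listed at 0 in H, such as Esrp1, Rab25 and Klf8, were tested only because of their levels in cholangiocyte libraries. The counts against H therefore depend in part on the filter.

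**Figure D5:**
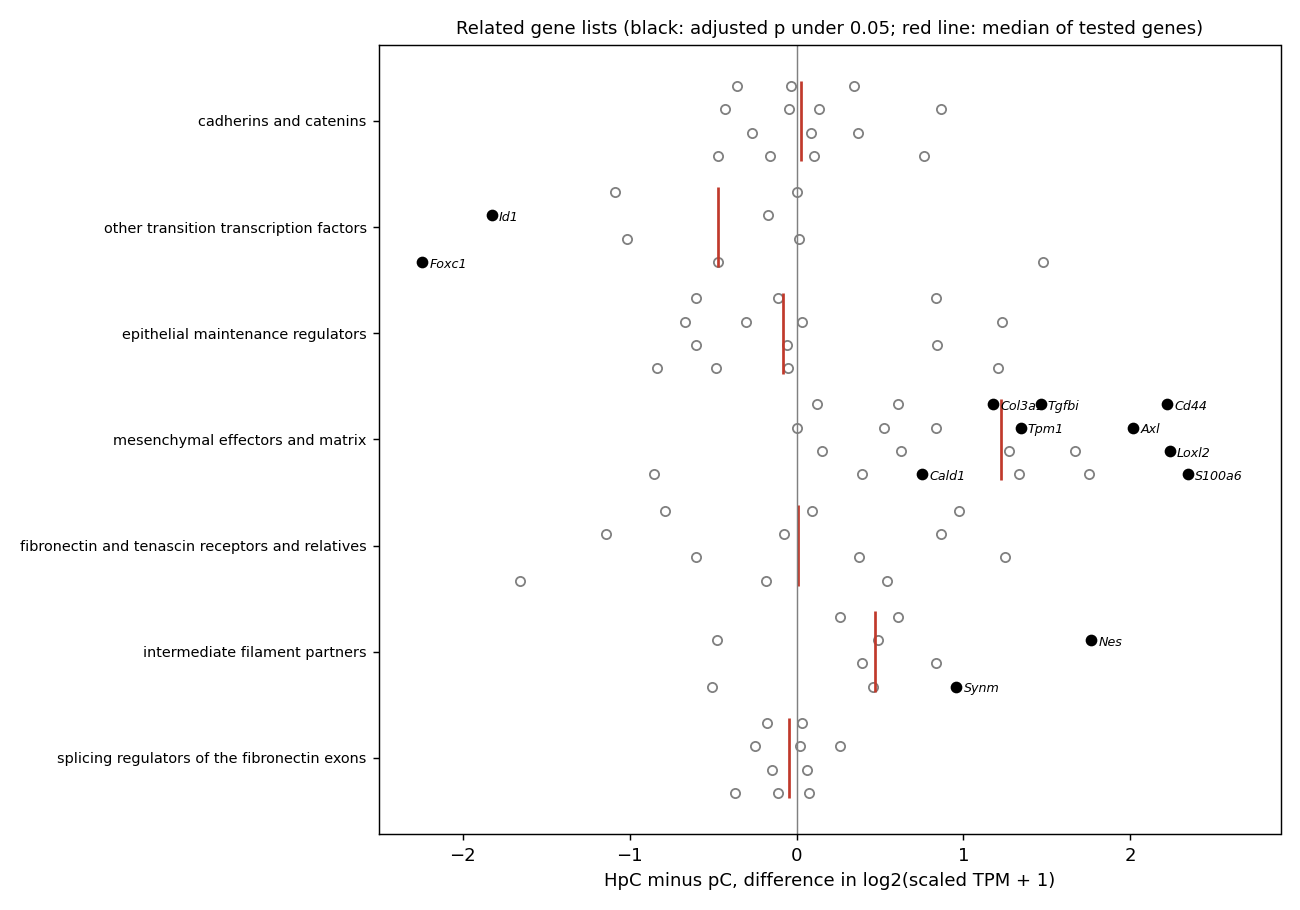
HpC minus pC difference in log2(scaled TPM + 1) for the tested genes of 7 lists, with 1 point per gene and 1 mesenchymal gene not drawn; vertical position within a list only separates points. Named black points passed an adjusted p of 0.05 (limma), grey circles did not, and red lines are list medians, the furthest from 0 being 1.23 for mesenchymal effectors.

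The genes whose levels ran most like 3 of the members across the 10 libraries were found among 7291 genes by the root mean square difference of centred log2 profiles. For Cdh1 they were Sh3rf1, a scaffold and ubiquitin ligase gene (0.13), Frmd6 (0.17) and the tight junction gene Marveld3 (0.20). For Cdh2 they were Serpina10, a plasma protease inhibitor gene (0.33), the complement protease gene Masp1 (0.35) and Ddah1 (0.42). Serpina10 had mean levels of 39.8 in HpC, 7.42 in pC and 138 scaled TPM in H, the same order of groups as Cdh2. For Vim they were the adaptor gene Grb10 (0.45), the endocytic adaptor gene Dab2 (0.48) and the claudin gene Cldn6 (0.50). Dab2 averaged 57.9 in HpC, 11.5 in pC and 0.039 in H.

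Markers of other liver cells were set beside the members. Summed levels of 12 stellate cell and fibroblast markers were 37.0 to 123 scaled TPM in HpC, highest in HpC1, against 55.6 to 71.3 in pC and 2.63 to 3.73 in H. None was at 0 in any HpC or pC library. Of 11 tested, 1, Col3a1, was higher in HpC than in pC (higher over all genes tested: 1.99%). The mesenchymal list also holds Col3a1, with Col1a1 and Col1a2. Of 6 mesothelial markers, 3 were higher and 1 lower in HpC than in pC (over all genes tested: 1.99% higher and 2.55% lower). Their sums were 33.1 to 54.6 in HpC, 24.3 to 30.9 in pC and 0.643 to 1.40 in H. Upk1b, among the 3 higher, averaged 3.95 in HpC and 0.507 in pC and was at 0 in H, so it was tested only because it was high in HpC. Sums of 8 endothelial markers were 8.14 to 18.2 in HpC, 9.01 to 14.9 in pC and 2.62 to 3.05 in H, and those of 8 macrophage markers were 13.4 to 36.0 in HpC, 23.6 to 32.4 in pC and 0.492 to 0.996 in H. Sums of 6 lymphocyte markers were at most 3.04 in HpC and 2.32 in pC, with up to 2 of the 6 listed at 0 in an HpC library and 1 to 3 in a pC library. Of these, 7 endothelial, 6 macrophage and 1 lymphocyte marker were tested between HpC and pC, and none passed. The part of these cells in the levels of Vim, Zeb2 and the mesenchymal list was not tested. In scaled TPM HpC1, where stellate markers were highest, was also the highest of the HpC libraries in Vim, Zeb2 and Cdh2. The stellate sums were 123, 37.0, 79.6 and 60.4 in HpC1 to HpC4, and these genes ranked the libraries in the same order. The ranks of these genes depend on the scaling, whose factor was 0.668 in HpC1 and 1.15 to 1.61 in the other HpC libraries. The same factors divide the stellate sum, which is given only in scaled TPM, so its rank as deposited is not shown. In TPM as deposited HpC1 lay above HpC2 but below HpC3 and HpC4 in each of these genes. Cdh2 was at 11.3 in HpC1, 14.2 in HpC3 and 13.7 in HpC4, and Zeb2 at 9.37, 12.7 and 14.1.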

How the data were processed

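The authors deposited 1 table per library with TPM for each of 85276 Ensembl transcripts. Per the submitters' processing notes kallisto and DESeq were used with the mm10 build; versions, roles and strand handling are not given in the sources used here. TPM hold no sequencing depth, so counting errors and detection limits are unknown.

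Transcripts were joined to genes through GENCODE M21 (mm10); 81927 matched and 3349, with 4.22% to 9.06% of a library's TPM, did not. The 14765 genes that reached 1 TPM in 3 or more libraries were kept. TPM were divided by factors from an unweighted trimmed mean of log ratios (30% of ratios and 5% of levels trimmed at each end). Values of log2(scaled TPM + 1) were fitted with limma 3.58.1 (R 4.3.3, mean-variance trend) in 1 fit of all 10 libraries, with Benjamini-Hochberg adjustment at 5%; the script was tested on simulated data. Tables and figures used Python 3.11.15, pandas 2.3.3 and matplotlib 3.10.9.

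The members, lists and rules were chosen with earlier results of these data known. Named were all members, up to 4 called genes per list with the smallest adjusted p or, with fewer than 2 called, the 2 of highest mean level, and the 3 most similar profiles, with a mean log2 value of at least 3. Other called genes, further list genes, cell type markers and overlapping genes were named after their values were seen. Alternatives were other pseudocounts, filters, scalings and fits, each library left out, HpC1 and HpC2 left out together, and coding transcripts only, the last added after seeing the data. A planned comparison of Fn1 exon shares was not run, because the values hold 1 Fn1 transcript. A gene of the mesenchymal list is counted with it but is not reported here.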

Additional observations from a re-analysis of the deposited data

Results flagged for a closer look

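Snai2 in HpC2 stood apart from the other HpC libraries. It was at 13.3 scaled TPM there, against 0.542 to 1.22 in HpC1, HpC3 and HpC4, and on the log2(scaled TPM + 1) scale the gap to the next library was 0.836 of the group's whole range, above Dixon's 95% critical value of 0.829 for 4 samples. HpC2 was the library with squamous epithelial transcripts, and their part in this value was not tested. Chance flags about 1 in 20 groups, and 11 sets of 4 HpC values were examined.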

How the results depend on the processing

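Cdh2 kept its direction and call in all 23 alternatives of each comparison, with HpC minus pC from 1.19 to 2.63 (highest adjusted p = 0.0203), and the calls of Cdh1, Vim, Zeb2 and Fn1 between HpC and H held in all 23 as well. The number of members called between HpC and pC was 1 to 3 when single libraries were left out, and 1 without HpC3, pC1 or pC3. Vim also lost its call with a pseudocount of 0.1 (1.49, adjusted p = 0.107) and on a protein-coding total (1.15, adjusted p = 0.0601). Same-numbered libraries did not deviate together (9 pairs, r from -0.05 to 0.08), so a replicate block has no basis in the design; with it Zeb2 stood at 1.52 between HpC and pC (adjusted p = 0.0784), and Synm did not pass either. Zeb1 passed under 4 of 23 alternatives for HpC minus H and 6 of 23 for pC minus H, the block among both. Zeb1 turned sign for HpC minus pC on TPM as deposited (-0.34), a protein-coding total (-0.25), the replicate block (-0.11) and without single libraries (-0.11 to 0.33). It also turned for HpC minus H (0.32 as deposited, 0.088 on the protein-coding total) and pC minus H (0.66 and 0.34). On TPM as deposited the median of all genes lay at -0.36, 0.87 and 1.20 in HpC minus pC, HpC minus H and pC minus H. Relative to that median, Vim was 1.42 and Zeb1 0.02 higher in HpC than in pC. Zeb2 pC minus H was -0.11 without H1. The cadherin ratio in H was 0.76 on coding transcripts only. Over all genes, 671 were called between HpC and pC, 1797 with array weights, 373 from those groups alone and 271 to 794 without single libraries. The cause of these changes was not tested. Depth is unknown, so the precision of low genes cannot be given.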
